A study of Homo sapiens with 9 samples.

Results

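Keratin mRNA of HCT116 cells, a human colorectal carcinoma line, was described for 10 genes in cells treated with activin or with activin and hepatocyte growth factor (HGF). The genes were KRT7, KRT8, KRT80 and KRT81, which encode type II keratins, and KRT13, KRT15, KRT18, KRT19, KRT20 and KRT23, which encode type I keratins. They were taken by name from a table of 33861 genes, each name matched 1 row, and all 10 passed the filter on low counts that left 20988 genes for testing. The control cells received neither factor, and how long they were cultured is not stated. Activin-treated cells received activin A at 100 ng/mL over 5 days. Activin + HGF-treated cells had the same activin exposure and afterwards 20 ng/mL HGF for 5 days. Whether activin was kept during the HGF days is not stated. The last group thus differs from the activin group in HGF, in culture time and perhaps in the end of activin exposure. These differences cannot be told apart. Each group had 3 libraries of RNA depleted of ribosomal RNA. All libraries came from the same established line, and the sources do not state whether replicates were separate cultures, so p-values measure the spread between these libraries, which may be technical. In such bulk RNA, fewer cells with a transcript and less of it per cell cannot be told apart.

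Keratins are the intermediate filament proteins of epithelial cells. A filament is built from heterodimers of a type I and a type II keratin, and an unpaired keratin is unstable. Simple epithelia such as the gut lining use KRT8 with KRT18 and KRT19, to which differentiated intestinal cells add KRT20, whereas stratified epithelia and hair use other pairs. The filaments attach to desmosomes and hemidesmosomes through plakin proteins.

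The libraries held between 57453977 and 77016167 counts on genes. Counts of activin library 2 differed most from those of the other activin libraries (chi-square per degree of freedom 195 and 239, against 77.9 between libraries 1 and 3). Activin + HGF library 1 likewise stood apart from libraries 2 and 3 (229 and 249, against 59.2), while control pairs ranged from 54.9 to 69.6. Where leaving out these libraries changed a call or strongly moved a keratin value, both values are given. Levels are given as CPM, the counts relative to the TMM-scaled size of the library, and levels of different genes are compared only per length, in FPKM.

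The epithelial identity of the libraries was checked with a list of markers. EPCAM, an epithelial adhesion molecule, was at 90.8 to 97.7 FPKM in control, 77.2 to 82.9 in activin and 119 to 133 in activin + HGF libraries. These groups did not overlap and stood in the same order as the group means of KRT8 and of the summed keratin FPKM. Whether the difference in EPCAM has a part in those levels was not tested. CDH1, the epithelial cadherin, was at 9.77 to 15.1 FPKM in control, 19.1 to 37.6 in activin and 14.2 to 22.7 in activin + HGF libraries. It thus did not follow EPCAM, as every activin library was above every control library. CDX2, an intestinal transcription factor, was at 1.57 to 5.41 FPKM. In contrast, VIL1, LGALS4, CEACAM5, GPA33 and CDH17, which mark differentiated gut epithelium, were each at or under 0.28 FPKM, so the libraries had epithelial markers but little of the differentiated intestinal ones.

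Marker lists of other cell types were low but not all flat. Of 8 leukocyte markers 6 were tested and 3 were higher with activin, 0 higher and 1 lower for activin + HGF against activin and 2 higher against control. Without activin + HGF library 1 the last counts were 0 lower and 1 higher. Their summed FPKM was 1.03 to 1.95 in control, 5.61 to 9.84 in activin and 6.24 to 8.20 in activin + HGF libraries. CD68, a lysosomal protein of macrophages that other cells also make, carried most of it in treated libraries, at 0.51 to 1.26, 3.98 to 8.38 and 5.73 to 7.41 FPKM, while the defining marker PTPRC was at or under 0.02 FPKM and CD3E at or under 0.05. Of 8 hepatocyte markers 6 were tested, with 3 higher with activin, 0 between the treated groups and 5 higher with activin + HGF than in control (3 without activin + HGF library 1). Their sum was 0.78 to 0.97, 2.40 to 3.48 and 2.97 to 4.03 FPKM, most of it SERPINA1, and ALB was at or under 0.26. The 8 fibroblast markers found summed to 5.11 to 6.02, 7.67 to 8.67 and 5.39 to 6.73 FPKM, of which COL1A1 held 2.22 to 5.80 and ACTA2 2.05 to 3.60, and DCN was at or under 0.01. Among 5 tested, 1 was higher and 1 lower with activin, 1 higher for activin + HGF against activin and 2 lower against control (1 without activin + HGF library 1). Endothelial markers summed to at most 0.38 FPKM. Of all genes, 6.78% were called higher and 4.62% lower with activin, 3.87% and 4.21% between the treated groups and 11.3% and 10.2% for activin + HGF against control. The part of other cell types in the keratin levels was not tested.

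Activin-treated cells differed from control cells in 6 of the 10 keratin genes. KRT80, KRT81 and KRT15 rose, KRT13, KRT20 and KRT23 fell, and KRT7, KRT8, KRT18 and KRT19 did not pass the test (quasi-likelihood test of edgeR). A call needed an adjusted p under 0.05 after Benjamini and Hochberg together with a log2 fold change of 1 or more in either direction, and SE is the approximate standard error of that change. Of all genes tested, 11.4% were called in this comparison, 6.78% higher and 4.62% lower. The CPM of the groups did not overlap for 7 of the 10 genes, against 42.2% of all genes tested. In activin + HGF-treated against activin-treated cells 2 of 10 were called, KRT13 and KRT15, both higher, where 8.09% of all genes were called and 3.87% were called higher and 4.21% lower. Without activin library 2 the count was 4, with KRT8 and KRT19 in addition, and without activin library 1, activin library 3 or activin + HGF library 1 it was 1, KRT13. With all libraries the groups did not overlap for 4 of 10 genes, against 32.7% of all genes tested. Activin + HGF-treated and control cells differed in 5 of 10, with KRT80, KRT81 and KRT15 higher and KRT20 and KRT23 lower, against 21.5% of all genes (11.3% higher, 10.2% lower). For 7 of 10 the groups did not overlap in this comparison, against 53.8% of all genes. The median log2 fold change of the 10 genes was -0.18, 0.61 and 0.54 in the same order, and that of all genes tested was 0.02, -0.04 and -0.04. The 3 comparisons share libraries and are not independent of each other.

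**Figure D1:**
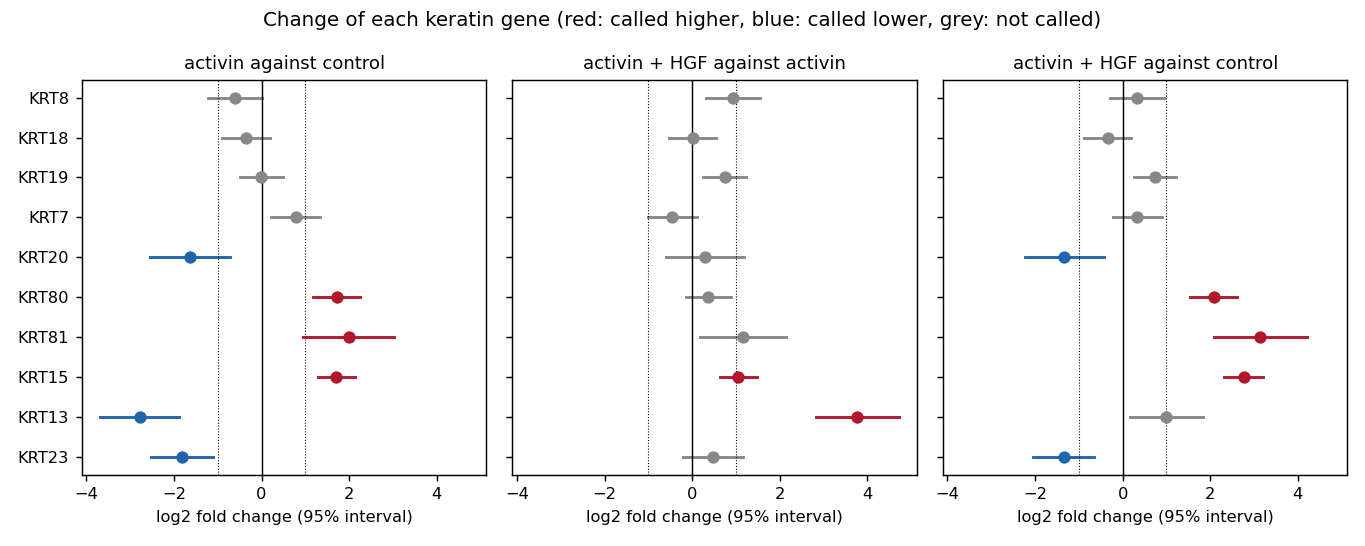
Log2 fold change of each keratin gene in the 3 comparisons (points, horizontal axis) with its 95% interval (lines), from edgeR. Dotted lines mark changes of 1 in either direction. KRT80, KRT81 and KRT15 lie to the right of 0 and KRT23 and KRT20 to the left of it against control, and KRT13 moves from -2.78 with activin to 3.78 between activin + HGF-treated and activin-treated cells.

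KRT8, KRT18 and KRT19 made up nearly all keratin mRNA of the 10 genes. Per length they held 94.6% to 96.1% of the summed FPKM in every library. KRT10 is not among the 10 genes and not in these sums. Its mean was 7.10 FPKM in control, 21.4 in activin and 55.1 in activin + HGF libraries. In activin + HGF library 1 KRT10 was above KRT18, at 68.5 against 61.3 FPKM. KRT8 (ENSG00000170421, chr12:52897187-52949920, minus strand), the type II keratin of simple epithelia, was at 1350, 1070 and 1321 CPM in control cells, 543, 1238 and 686 CPM in activin-treated cells and 1833, 1318 and 1546 CPM in activin + HGF-treated cells. Activin libraries 1 and 3 were lower than every control library, library 2 lay among them, and the activin + HGF libraries were all above the activin ones. The log2 fold change of KRT8 was -0.60 with activin (95% interval -1.22 to 0.01, edgeR adjusted p = 0.17) and 0.93 for activin + HGF against activin (0.31 to 1.55, edgeR adjusted p = 0.0529). Against control, activin + HGF gave 0.33, and 0.20 without activin + HGF library 1. The first 2 values depended on activin library 2. Without it, KRT8 fell by 1.02 on the log2 scale with activin (edgeR adjusted p = 0.00654) and rose by 1.35 between activin and activin + HGF (edgeR adjusted p = 0.0031). In FPKM the activin and activin + HGF libraries overlapped.

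KRT18 (ENSG00000111057, chr12:52948871-52952900, plus strand), its type I partner, was at 513, 523 and 511 CPM in control cells. It was at 323, 550 and 338 CPM in activin-treated cells and at 287, 458 and 474 CPM in activin + HGF-treated cells. All activin + HGF libraries were below all control libraries, and activin library 2 was above them. No comparison of KRT18 passed the test, with log2 fold changes of -0.35 (95% interval -0.90 to 0.19), 0.01 (-0.53 to 0.55) and -0.34 (-0.89 to 0.20) for activin against control, activin + HGF against activin and activin + HGF against control. Without activin library 2 the first was -0.642 (edgeR adjusted p = 0.0641) and the second 0.30. Without activin + HGF library 1 the second was 0.21 and the third -0.143. With both left out they were -0.635, 0.50 and -0.136 (edgeR adjusted p = 0.000769, 0.00407 and 0.17), under the fold threshold throughout.

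KRT19 (ENSG00000171345, chr17:41523617-41528308, minus strand) encodes a short type I keratin of simple and ductal epithelia. Control libraries had 689, 732 and 717 CPM, activin libraries 582, 951 and 598 CPM, and activin + HGF libraries 926, 1296 and 1347 CPM. KRT19 in activin + HGF-treated cells was thus above every control library. Activin libraries 1 and 3 lay below control and library 2 above it, within the range of activin + HGF. Between activin and control the log2 fold change of KRT19 was near 0 (95% interval -0.49 to 0.48), and -0.274 without activin library 2. Activin + HGF against control gave 0.74 (0.25 to 1.23, edgeR adjusted p = 0.0275), under the fold threshold, and their FPKM overlapped. Against activin it was 0.74 too (0.26 to 1.23, edgeR adjusted p = 0.0506), and without activin library 2 it was 1.01 and passed (edgeR adjusted p = 0.00546).

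The balance among these keratins was compared per library in FPKM. The ratio of KRT19 to KRT18 was 1.82 ± 0.0448 (SD, n = 3) in control cells and 2.32 ± 0.047 (SD, n = 3) in activin-treated cells. In activin + HGF-treated cells it was 4.23, 3.72 and 3.73. The 3 groups were fully separated in this ratio, which was chosen after its values were seen, and the groups did not overlap in any comparison (exact permutation test, two-sided, p = 0.1, the smallest that 3 libraries against 3 can give). The log2 difference between activin + HGF and activin was 0.74, and it was 0.73 without activin library 2 and 0.68 without activin + HGF library 1. The ratio of KRT8 to KRT18 was 1.17, 0.913 and 1.15 in control cells, 0.75, 1.01 and 0.904 with activin, and 2.85, 1.28 and 1.45 with activin + HGF. Every activin + HGF library was above all others in this ratio, and library 1 was the highest by far (exact permutation p = 0.1 and adjusted p = 0.36 over 9 tests, for activin + HGF against either group). Leaving out activin + HGF library 1 took the log2 difference from control from 0.70 to 0.35. Activin and control overlapped in the ratio of KRT8 to KRT18 (exact permutation p = 0.2).

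The summed FPKM of the 10 genes was 618 ± 27.4 (SD, n = 3) in control, 542 ± 121 (SD, n = 3) in activin and 669 ± 131 (SD, n = 3) in activin + HGF libraries. These sums overlapped between all groups (exact permutation p of 0.2 to 0.6), with log2 differences of -0.211 for activin and 0.094 for activin + HGF against control and 0.304 between the treated groups. Without activin library 2 the first was -0.387 and the last 0.481, and without activin + HGF library 1 the second was 0.267 and the last 0.478. The overlap also depended on the scale. In TMM-scaled CPM the 10 genes summed to 2421 to 2669 in control, 1546 to 2867 in activin and 3201 to 3531 in activin + HGF libraries, so that the last group overlapped with neither of the others. On that scale the log2 differences were 0.363 for activin + HGF against control and 0.755 against activin (exact permutation p = 0.1 for both). Type II genes held 27.2% ± 2.62 (SD, n = 3), 22.5% ± 2.48 (SD, n = 3) and 27.2% ± 7.31 (SD, n = 3) of the sum, with overlap in every comparison (exact permutation p of 0.2 to 1). The spread of the last group came from activin + HGF library 1, in which type II genes held 35.6%, against 22.0% and 24.1% in the others. Without it, the difference between activin + HGF and activin went from 4.77 to 0.593 percentage points.

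**Figure D2:**
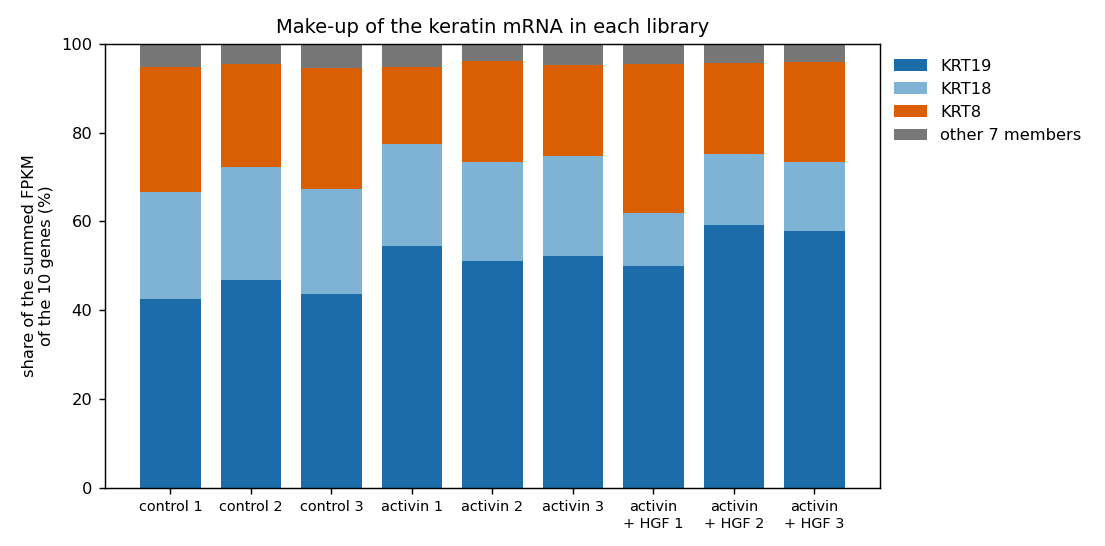
Share of the summed FPKM of the 10 keratin genes held by KRT19, KRT18, KRT8 and the other 7 genes together, in percent, in each of the 9 libraries. KRT8, KRT18 and KRT19 hold 94.6% to 96.1% throughout, and the KRT18 band is thinnest in the activin + HGF libraries, at 11.8% to 15.9%.

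**Figure D3:**
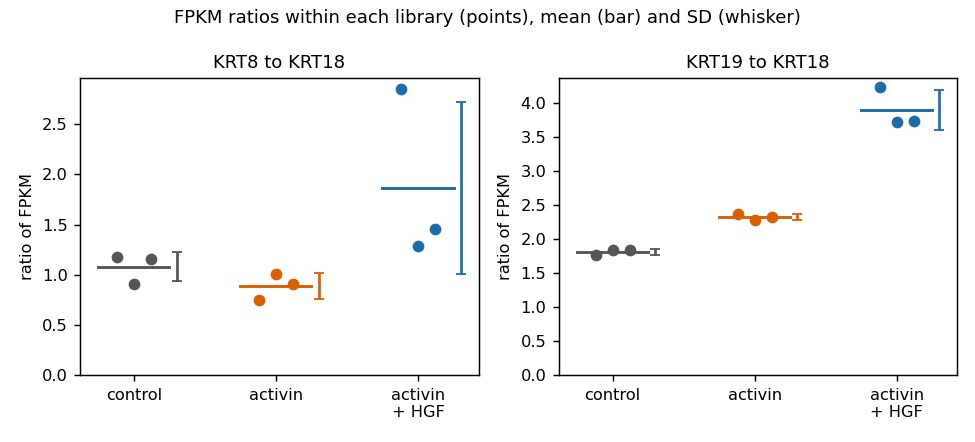
FPKM ratios of KRT8 to KRT18 (left) and KRT19 to KRT18 (right) in each library (points), with the mean (bar) and SD (whisker) of each group of 3. The KRT19 to KRT18 ratios lie at 1.77 to 1.85 in control, 2.27 to 2.37 in activin and 3.72 to 4.23 in activin + HGF libraries, and the KRT8 to KRT18 ratio of activin + HGF library 1 (2.85) stands far above the rest.

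KRT8 and KRT18 are hard to count apart from other loci. They lie on opposite strands and overlap at their ends, and whether the counting used strand is not stated. In the GENCODE v29 transcripts, 16.1% of the 50-base stretches of KRT8 and 24.5% of those of KRT18 also occur, on either strand, in transcripts of other genes, among them processed pseudogenes. KRT18 shared most with KRT8 (12.7% of its stretches), and KRT8 shared most with KRT18 (5.94%). Of the 31 annotated KRT8 pseudogenes 10 were tested, of which 0 were higher and 5 lower with activin (6.78% and 4.62% of all genes), 3 and 0 for activin + HGF against activin (3.87% and 4.21%) and 1 and 4 against control (11.3% and 10.2%). Without activin + HGF library 1 the middle pair was 1 and 0, and without activin library 2 it was 4 and 1, of 14 tested each. Their counts summed to 0.846% to 2.52% of those of KRT8, and those of 30 KRT18 pseudogenes to 0.256% to 0.723% of KRT18.

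KRT7 and KRT20 are the keratins used to tell colorectal from other adenocarcinomas, KRT7 being typical of ducts and glands and KRT20 of intestinal epithelium. KRT7 (ENSG00000135480, chr12:52232520-52252186, plus strand) was at 14.6, 14.6 and 16.6 CPM in control cells, at 24.5, 33.7 and 20.7 CPM with activin and at 13.5, 20.3 and 24.0 CPM with activin + HGF. All activin libraries were above all control libraries, and the activin + HGF libraries spread across both. The log2 fold change of KRT7 with activin was 0.78 (95% interval 0.22 to 1.34, edgeR adjusted p = 0.0569), which did not pass, and it was 0.56 without activin library 2. For activin + HGF it was -0.45 against activin (-1.005 to 0.11), which became -0.228 without activin library 2 and -0.244 without activin + HGF library 1. Against control it was 0.33 (-0.23 to 0.89), and 0.533 without activin + HGF library 1. An antisense gene, KRT7-AS, overlaps KRT7 and had at most 0.945 CPM in any library. KRT87P and KRT86, a hair keratin gene on the same strand as KRT7, overlap it too.

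KRT20 (ENSG00000171431, chr17:40875889-40885242, minus strand) fell in both treated groups. Its levels were 5.52, 4.24 and 4.91 CPM in control cells, 1.57, 0.784 and 2.36 CPM with activin and 1.32, 2.36 and 2.12 CPM with activin + HGF. Each treated library was below each control library, and the treated groups overlapped. KRT20 was 3.11-fold lower with activin (log2 fold change -1.63, SE 0.41, edgeR adjusted p = 0.0203) and 2.53-fold lower with activin + HGF (-1.34, SE 0.41, edgeR adjusted p = 0.0297). Counts of KRT20 were 49 to 395 per library, and the calls were not firm. Without control library 1 the edgeR adjusted p was 0.0898 and 0.0906, without library 2 it was 0.056 and 0.0544, and without library 3 it was 0.0629 and 0.0786. The activin call was also lost without activin library 1 (edgeR adjusted p = 0.0752), and the activin + HGF call without activin + HGF library 1 (0.0827) or 3 (0.0595). Between the treated groups the log2 fold change of KRT20 was 0.30 (95% interval -0.59 to 1.19).

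KRT20 is known as a target of the intestinal homeobox factors CDX1 and CDX2. The sequence before its start is therefore shown, from RefSeq (GRCh38.p14, chr17:40885243-40885492, minus strand, 250 bases read toward the gene). The table of promoters held 2 of the 10 genes. Windows of the same length before 35116 starts were searched on both strands for TTTATG (CDX), GTCTAGAC (SMAD) and TGANTCA (AP-1).
KRT20: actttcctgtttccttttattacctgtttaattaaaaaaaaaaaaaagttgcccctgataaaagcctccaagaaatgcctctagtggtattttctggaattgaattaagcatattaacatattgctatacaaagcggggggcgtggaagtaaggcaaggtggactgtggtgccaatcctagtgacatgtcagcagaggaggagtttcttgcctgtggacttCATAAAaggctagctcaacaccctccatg
The capitals mark CATAAA, the CDX motif on the other strand, 29 to 24 bases before the start, which overlaps the place of a TATA-like box. TTTATG occurred in 9.64% of all windows, TGANTCA in 6.57% and GTCTAGAC in 0.182%, and the latter pair had no match in the KRT20 window. CDX2 was at 15.3 ± 1.80 (SD, n = 3) CPM in control, 14.8 ± 3.38 (SD, n = 3) in activin libraries and 18.9 ± 9.10 (SD, n = 3) in activin + HGF libraries, and passed in no comparison (edgeR adjusted p = 0.954, 0.552 and 0.558). CDX1 was at or under 0.14 FPKM in every library.

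**Figure D4:**
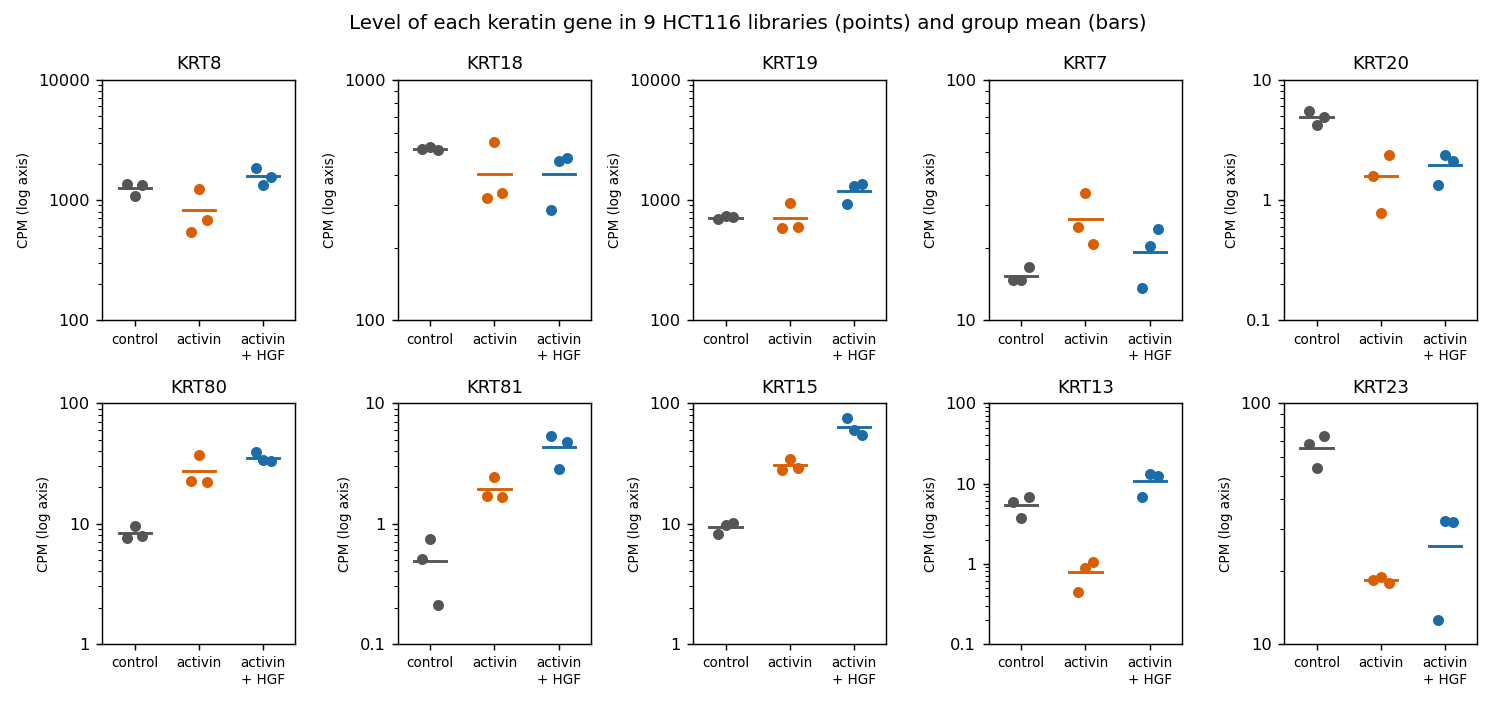
Level of each of the 10 keratin genes in CPM (log axis, different range in each panel) in the 9 libraries (points) and the mean of each group of 3 (bars). KRT15 steps up from 8.17 to 10.1 in control over 28.0 to 34.8 in activin to 54.3 to 76.1 CPM in activin + HGF libraries, and KRT13 is lowest in the activin libraries, at 0.448 to 1.04 CPM.

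KRT80, KRT81 and KRT15 were higher in both treated groups than in control cells. KRT15 (ENSG00000171346, chr17:41513745-41522529, minus strand), a type I keratin of basal cells in stratified epithelia and of hair follicle stem cells, had 8.17, 9.73 and 10.1 CPM in control libraries. It had 28.0, 34.8 and 28.9 CPM in activin libraries and 76.1, 60.1 and 54.3 CPM in activin + HGF libraries. No value of any group reached into another, so the order was control, activin, activin + HGF. KRT15 was 3.28-fold higher with activin (log2 fold change 1.71, SE 0.19, edgeR adjusted p = 0.000351) and 6.81-fold higher with activin + HGF (2.77, SE 0.20, edgeR adjusted p = 2.23e-05). Activin + HGF against activin gave 1.06 (95% interval 0.63 to 1.48, edgeR adjusted p = 0.00936), close to the fold threshold. This last difference was 0.91 without activin + HGF library 1, 0.93 without activin library 1, 0.94 without activin library 3 and 0.71 when library totals were used without a scaling factor, each under the threshold. That change of scaling also moves the median of all genes by -0.34 in this comparison, by -0.27 for activin + HGF against control and by 0.08 for activin against control.

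KRT80 (ENSG00000167767, chr12:52168996-52192014, minus strand), a type II keratin found near desmosomes in differentiating epithelial cells, was at 7.51, 9.62 and 7.93 CPM in control cells. Its levels were 22.5, 37.5 and 22.2 CPM with activin and 39.1, 33.7 and 33.3 CPM with activin + HGF. All treated libraries were above all control libraries, and activin library 2 reached into the activin + HGF group. KRT80 was 3.28-fold higher with activin (log2 fold change 1.71, SE 0.24, edgeR adjusted p = 0.00109) and 4.23-fold higher with activin + HGF (2.08, SE 0.24, edgeR adjusted p = 0.000222). Between the treated groups it differed by 0.37 on the log2 scale (95% interval -0.14 to 0.88, edgeR adjusted p = 0.317). Without activin library 2 the activin change was 1.42 and the difference between treated groups 0.66, the latter still under the fold threshold.

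KRT81 (ENSG00000205426, chr12:52285913-52291534, minus strand), a type II hair keratin, was the least abundant of the 10 genes per length in control cells (0.227 ± 0.121 FPKM, SD, n = 3), with 31, 50 and 17 counts. In CPM it was at 0.506, 0.744 and 0.211 in control, 1.71, 2.43 and 1.65 in activin and 5.31, 2.85 and 4.76 in activin + HGF libraries. The 3 groups did not overlap. KRT81 was 3.97-fold higher with activin (log2 fold change 1.99, SE 0.47, edgeR adjusted p = 0.0149) and 8.84-fold higher with activin + HGF (3.14, SE 0.48, edgeR adjusted p = 0.00103). The call with activin was lost without control library 1 (log2 fold change 2.06, edgeR adjusted p = 0.0524). Activin + HGF against activin gave 1.16 (95% interval 0.17 to 2.14, edgeR adjusted p = 0.111), which did not pass.

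KRT81 overlaps the span of KRT86 (chr12:52249300-52309163, plus strand), another type II hair keratin gene with a nearly identical coding sequence, and 37.6% of the 50-base stretches of KRT81 transcripts also occur in KRT86. Over 1304 aligned coding bases they are 97.1% identical. Bases 728 to 787 of both coding sequences are printed with the 3 bases that differ in capitals, to show how few positions tell reads of these genes apart.
KRT81: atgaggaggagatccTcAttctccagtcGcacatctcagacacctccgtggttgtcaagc
KRT86: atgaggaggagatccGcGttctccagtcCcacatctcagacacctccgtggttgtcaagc
KRT86 also rose, from 0.398 ± 0.0633 (SD, n = 3) CPM in control over 2.05 ± 0.776 (SD, n = 3) with activin to 5.62 ± 1.62 (SD, n = 3) with activin + HGF. Its log2 fold change was 2.36 with activin (edgeR adjusted p = 0.00233), 1.45 for activin + HGF against activin (edgeR adjusted p = 0.0278) and 3.81 against control (edgeR adjusted p = 0.000132). The middle call was lost without activin + HGF library 1 (1.20, edgeR adjusted p = 0.074). The division of reads between KRT81 and KRT86 is uncertain.

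KRT13 and KRT23 fell with activin, and of them only KRT13 was called between the treated groups. KRT13 (ENSG00000171401, chr17:41500981-41505613, minus strand), a type I keratin of the upper layers of mucosal squamous epithelia, was at 5.83, 3.69 and 6.74 CPM in control cells and at 0.448, 0.881 and 1.04 CPM in activin-treated cells. With activin + HGF it was at 6.71, 13.2 and 12.6 CPM. The activin libraries were below all others, activin + HGF libraries 2 and 3 were above all others, and activin + HGF library 1 overlapped with control. KRT13 was 6.86-fold lower with activin (log2 fold change -2.78, SE 0.41, edgeR adjusted p = 0.00143). It was 13.7-fold higher with activin + HGF than with activin (3.78, SE 0.42, edgeR adjusted p = 0.00204). Both KRT13 calls were kept under all 18 alternatives, with log2 fold changes from -3.00 to -1.08 and from 1.54 to 4.11. Against control, activin + HGF gave 0.996 (95% interval 0.16 to 1.84, edgeR adjusted p = 0.0688), and 1.25 without activin + HGF library 1, which passed (edgeR adjusted p = 0.0326). In the annotation, 12.6% of the 50-base stretches of KRT13 transcripts are shared with the overlapping gene AC019349.1.

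KRT23 (ENSG00000108244, chr17:40922700-40937646, minus strand), a type I keratin inducible by histone deacetylase inhibitors, was at 68.1, 53.7 and 73.5 CPM in control cells. It was at 18.4, 18.9 and 17.8 CPM with activin and at 12.6, 32.3 and 32.0 CPM with activin + HGF. Every treated library was below every control library, and activin + HGF library 1 lay below the activin libraries while libraries 2 and 3 lay above them. KRT23 was 3.54-fold lower with activin (log2 fold change -1.82, SE 0.32, edgeR adjusted p = 0.0036) and 2.54-fold lower with activin + HGF (-1.34, SE 0.31, edgeR adjusted p = 0.0091). Both calls were kept under all 18 alternatives. Between treated groups it differed by 0.48 (95% interval -0.21 to 1.17), and by 0.81 without activin + HGF library 1 (edgeR adjusted p = 0.026), under the fold threshold.

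Of 45 other keratin genes listed, 28 were in the table and 15 were tested, 4 of type II and 11 of type I. Among the tested type I genes 5 were higher and 1 lower with activin, 2 and 1 for activin + HGF against activin, and 4 and 1 against control. The first pair was 5 and 0 and the middle pair 1 and 1 without activin library 2, of 12 tested. The middle pair was also 1 and 1 without activin + HGF library 1, of 11 tested. Of the type II genes 1 was higher and 0 lower in each comparison, and this was KRT86. Over all genes, 6.78% were called higher and 4.62% lower with activin, 3.87% and 4.21% between the treated groups and 11.3% and 10.2% with activin + HGF against control. KRT10, a type I keratin of suprabasal epidermis, rose at each step, from 17.1 ± 1.31 (SD, n = 3) CPM in control over 49.3 ± 12.7 (SD, n = 3) to 166 ± 52.2 (SD, n = 3) with activin + HGF. Its log2 fold change was 1.53 with activin (edgeR adjusted p = 0.00259) and 1.75 between activin and activin + HGF (edgeR adjusted p = 0.00502), and the groups did not overlap. KRT17, a type I keratin induced in wounded and hyperproliferative epithelium, had 12, 0 and 12 counts in control libraries, 736, 950 and 708 in activin libraries and 59, 6 and 23 in activin + HGF libraries. It thus rose with activin (log2 fold change 6.63, SE 1.02, edgeR adjusted p = 0.00186) and fell by 4.52 between activin and activin + HGF (edgeR adjusted p = 0.0133), while KRT13 went the opposite way. KRT16, its near relative in wounded epithelium, was 7.70-fold higher with activin (edgeR adjusted p = 0.00549) and 12.8-fold higher with activin + HGF than in control (edgeR adjusted p = 0.00112). These fold changes rest on few and uneven KRT16 counts in control libraries, 13, 12 and 62. KRT16 and KRT17 have close copies in the genome, so the division of their reads is uncertain. KRT222, a keratin-like gene, was 4.27-fold lower with activin + HGF than in control (edgeR adjusted p = 0.0127).

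**Figure D5:**
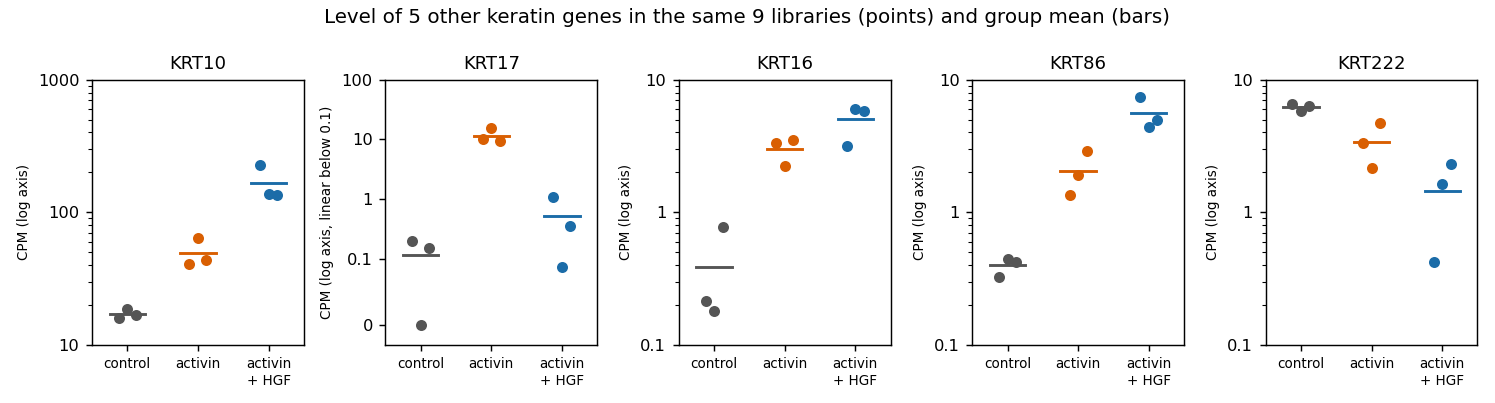
Level of KRT10, KRT17, KRT16, KRT86 and KRT222 in CPM (log axis, for KRT17 linear below 0.1) in the 9 libraries (points) and the mean of each group of 3 (bars). KRT17 is at 9.42 to 15.2 CPM in activin libraries and at or below 1.08 CPM in all others, while KRT10 and KRT86 are highest with activin + HGF.

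Markers of stratified squamous epithelium, a list that includes KRT10 itself, were looked at beside these keratins. The list held 11 symbols, with LORICRIN and LOR both standing for loricrin. Of these symbols 6 were in the table and 5 were tested. Among those tested, 3 were higher and 0 lower with activin, 1 and 0 for activin + HGF against activin and 3 and 0 against control. The summed FPKM of the 6 in the table was 7.11 to 7.60 in control, 20.9 to 27.9 in activin and 47.7 to 70.1 in activin + HGF libraries. KRT10 made up most of this sum. SPRR1B was the only other marker above 1 FPKM in a group and did not follow it, listed at 0 in control and at 1.3 to 1.97 FPKM in activin and 0.11 to 0.72 FPKM in activin + HGF libraries. Of the defining basal markers, TP63 was at or under 0.04 FPKM and KRT5 at or under 0.30 in every library. KRT14 was at or under 0.03 FPKM in control libraries. It was higher in all treated libraries, at 0.51 to 0.55 FPKM with activin and 0.47 to 0.81 with activin + HGF. Whether a change in cell type has a part in the keratin changes was not tested.

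Genes that hold or contact keratin filaments were counted from written lists. Of 22 desmosome and plakin genes tested, 1 was higher and 0 lower with activin, where 11.4% of all genes were called either way. For activin + HGF against activin 1 was higher and 1 lower (8.09% of all genes), and against control 2 were higher and 3 lower, a share near the 21.5% of all genes. The middle pair was 1 and 2 without activin library 2 and 0 and 0 without activin + HGF library 1, of 23 tested each. PLEC (plectin), which links keratin filaments to hemidesmosomes, was 3.44-fold higher with activin (edgeR adjusted p = 0.000784). PERP, a desmosomal membrane protein, was 2.03-fold higher with activin + HGF than with activin (edgeR adjusted p = 0.00705), while the cytoskeletal cross-linker MACF1 was 2.07-fold lower (edgeR adjusted p = 0.0229). Without activin + HGF library 1 both calls were lost, PERP at 1.81-fold and MACF1 at an edgeR adjusted p of 0.0517. DST, a further plakin, was 2.62-fold lower with activin + HGF than in control (edgeR adjusted p = 0.0103). Against activin DST was not called with all libraries, but was called without activin library 2 (log2 fold change -1.125, edgeR adjusted p = 0.00852). DSP (desmoplakin), which anchors keratin at desmosomes, was at 304 ± 6.83 (SD, n = 3), 207 ± 64.2 (SD, n = 3) and 218 ± 19.8 (SD, n = 3) CPM in control, activin and activin + HGF cells and was not called. JUP (plakoglobin) was not called either, with a log2 fold change of 0.77 for activin + HGF against control (edgeR adjusted p = 0.0383).

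Among 12 tested genes of other intermediate filament proteins, 1 was higher and 1 lower with activin (6.78% and 4.62% of all genes), 0 were higher and 1 lower for activin + HGF against activin (3.87% and 4.21%), and 2 were higher and 3 lower against control (11.3% and 10.2%). The first pair was 1 and 0 and the middle pair 1 and 1 without activin library 2. The last pair was 2 and 4 without activin + HGF library 1, of 13 tested. PRPH (peripherin), a neuronal type III protein, rose from 3.69 ± 0.107 (SD, n = 3) to 27.3 ± 7.35 (SD, n = 3) CPM with activin (edgeR adjusted p = 4.2e-05) and was at 27.0 ± 1.51 (SD, n = 3) CPM with activin + HGF. SYNM (synemin) was 2.02-fold lower with activin (edgeR adjusted p = 0.0118), and 1.81-fold without activin library 2, under the fold threshold. VIM (vimentin), the filament protein of mesenchymal cells, was at 15.9 ± 9.50 (SD, n = 3) CPM in control, 5.81 ± 1.58 (SD, n = 3) in activin libraries and 2.52 ± 1.64 (SD, n = 3) in activin + HGF libraries. It was lower with activin + HGF than in control (log2 fold change -2.66, SE 0.59, edgeR adjusted p = 0.00707). The control libraries were uneven, at 4.98, 22.04 and 20.75 CPM. Control library 1 thus lay within the range of the activin libraries and close to activin + HGF library 1, at 4.41 CPM. Of 18 proteins that bind, modify or cleave keratins, 3 were higher and 1 lower with activin (11.4% of all genes called either way), 1 and 0 for activin + HGF against activin (8.09%) and 3 and 1 against control, a share near the 21.5% of all genes. The first pair was 2 and 2 without activin library 2, and the last 4 and 1 without activin + HGF library 1. SFN, the epithelial 14-3-3 protein, which binds keratin filaments, was 2.82-fold higher with activin + HGF than with activin (edgeR adjusted p = 0.0134) and 6.81-fold higher than in control (edgeR adjusted p = 0.0002). YWHAH, another 14-3-3 gene, was 4.0-fold higher with activin (edgeR adjusted p = 0.000347). PNN (pinin) was 2.81-fold lower with activin (edgeR adjusted p = 0.0344) and TCHP (trichoplein), which binds KRT8 and KRT18 filaments, was 3.36-fold lower with activin + HGF than in control (edgeR adjusted p = 0.00241).

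Of 27 tested transcription factor genes with known roles at epithelial keratin genes, 10 were higher and 0 lower with activin (6.78% and 4.62% of all genes), 4 and 0 for activin + HGF against activin (3.87% and 4.21%), and 14 and 1 against control (11.3% and 10.2%). Without activin library 2 the first 2 counts of higher genes were 9 and 6, and without activin + HGF library 1 the middle pair was 3 and 1. Their median log2 fold change was 0.73, 0.35 and 1.07, against 0.02, -0.04 and -0.04 for all genes tested. SNAI2, a repressor of epithelial genes, was 13.6-fold higher with activin (edgeR adjusted p = 0.000175), from 0.269 ± 0.0825 (SD, n = 3) to 3.70 ± 0.941 (SD, n = 3) CPM. FOS, a subunit of the AP-1 factor, was 4.77-fold higher with activin + HGF than with activin (edgeR adjusted p = 0.00676). JUN, its AP-1 partner, was at 18.6 ± 0.920 (SD, n = 3) CPM in control, 150 ± 35.6 (SD, n = 3) in activin and 495 ± 255 (SD, n = 3) in activin + HGF libraries, 26.6-fold higher than control (edgeR adjusted p = 2.65e-05). SP3 was 2.02-fold lower with activin + HGF than in control (edgeR adjusted p = 0.0367), though its groups overlapped in CPM.

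For KRT13, KRT15, KRT20, KRT23 and KRT81, the 2 genes with the most similar course over the 9 libraries were taken from 13154 expressed genes outside the keratin family. Similarity was the root mean square distance of log2 CPM after centring each gene on its mean. A constant was added to CPM before the logarithm, which dampens the course of genes at low CPM, such as KRT81 and KRT13. KRT15 was closest to TIMP3 and BBC3 (0.105 and 0.138). KRT20 was closest to WDR3 and MRPL39 (0.141 and 0.143), KRT81 to EML2 and PIM3 (0.212 and 0.218), and KRT23 to FAM207A and GATA2-AS1 (0.214 and 0.215). KRT13 had no such near neighbour: its closest genes were the ferritin pseudogene FTH1P3 and AC011979, at 0.536 and 0.569.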

How the data were processed

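RNA of 9 HCT116 libraries had been depleted of ribosomal RNA and sequenced with paired ends. The authors deposited raw read counts per gene and FPKM values, which the authors scaled by transcript length and library size. The submitters' processing notes name cutadapt 1.9, HISAT2 2.0.4 and StringTie 1.3.4d. The genome build and the use of strand are not given in the sources used here, but 91.5% of 32930 shared genes lay within 1000 bases of their GENCODE v29 (GRCh38) position. Of the counts between 1 and 40, 35.0% could be divided by 4, where an even spread gives 25%, so a count need not be 1 fragment.

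All 9 libraries were fitted with edgeR 4.0.16 in R 4.3.3 (filterByExpr, TMM, quasi-likelihood test, a mean for each group, no block), with Benjamini-Hochberg adjustment over 20988 genes and the thresholds given above. SE and 95% intervals follow from each fold change with its F value. FPKM ratios, shares and sums were compared with two-sided exact permutation tests. The scripts were tested on simulated data. Same-numbered libraries deviated together with correlations of -0.103 to 0.195, so numbers were not taken as pairs. Keratin genes and lists were chosen with earlier results of these data known. Named genes were the 10 keratins, other keratins with a mean of at least 1 FPKM in a group, the largest called rise and fall of each list with at least 1 FPKM in the higher group, VIM, DSP, JUP and the 2 nearest genes, those of KRT80 not being reported here. Alternatives were other scaling, filter, samples or thresholds, a replicate block, DESeq2 1.42.0, limma 3.58.1 on log2(FPKM + 1) or log2(FPKM + 0.1), added pseudogene counts and left-out libraries. Leaving out both libraries that stood apart, and all refits without these libraries for genes other than the 10 keratins, were added after seeing the data.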

Additional observations from a re-analysis of the deposited data

How the results depend on the processing

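Of the 540 alternative values of the 10 keratin genes, 483 kept their direction and side of the threshold, 9 newly passed, 23 no longer passed and 25 changed sign, none of the last being a called change. Alternatives that only changed the threshold are counted among them. They keep the fold change of the main fit, so their sign could not change. KRT19 with activin against control was near 0 and turned to 0.0048 and 0.048 with RLE factors and library totals, 0.0036 with DESeq2, 0.037 with limma at either pseudocount, 0.0055 with only the 2 groups compared and -0.274 to 0.146 with a library left out. KRT18 for activin + HGF against activin became -0.00023, -0.288, -0.0062, -0.357, -0.36 and -0.032 under RLE factors, library totals, DESeq2, limma with pseudocount 1, limma with 0.1 and only the 2 groups compared, and -0.191 to 0.299 with a library left out. In the same comparison KRT20 was -0.062 with library totals, -0.018 with limma (pseudocount 1) and -0.021 to 0.616 with a library left out (-0.021 without activin library 2), and KRT23 was -0.018 with limma (0.1). KRT7 for activin + HGF against control was -0.0049 with limma (0.1). For these sign changes the cause was not tested.

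The count of keratins called for activin + HGF against activin was 1 with library totals and with limma at either pseudocount, 1 to 4 with a library left out and 4 without activin 2 and activin + HGF 1. The type II share for activin + HGF against control (0.077 percentage points) became -0.037 in CPM, -1.77 over all keratin genes and -0.983 with pseudogenes added, and -4.10 to 2.71 with a library left out. The difference in summed log2 FPKM was -0.0061 without activin + HGF library 3, and at most 0.267 with another library left out. With replicate numbers entered as a block, 6, 2 and 5 keratins were called in the 3 comparisons, as without it. For ratios, shares and sums the block alters only the p-value, so it cannot show whether their direction holds. The block left 2218, 1366 and 4222 of all genes called. The number of libraries, 3 per group, limits these tests.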

Other observations

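Genes of hair keratin-associated proteins, which cross-link hair keratins such as KRT81 and KRT86 in the hair shaft, were looked at after their values were seen. Of 24 such genes 10 were tested. With activin 3 were higher and 0 lower (6.78% and 4.62% of all genes), for activin + HGF against activin 3 and 0 (3.87% and 4.21%), and against control 5 and 0 (11.3% and 10.2%). The middle count was 1 without activin + HGF library 1 and 2 without activin library 2. KRTAP2-3 had 1.62, 2.25 and 2.41 CPM in control libraries, 12.3, 18.4 and 15.7 CPM in activin libraries and 126.6, 50.3 and 40.4 CPM in activin + HGF libraries, with no overlap between groups. KRTAP2-3 had a log2 fold change of 2.88 with activin (SE 0.42, edgeR adjusted p = 0.0013) and 2.23 between activin and activin + HGF (SE 0.40, edgeR adjusted p = 0.00928). KRTAP2-4 went from 0.204 ± 0.143 (SD, n = 3) over 1.95 ± 0.761 (SD, n = 3) to 9.02 ± 4.29 (SD, n = 3) CPM, and KRTAP2-1 from 0.154 ± 0.0955 (SD, n = 3) over 0.741 ± 0.101 (SD, n = 3) to 2.98 ± 1.34 (SD, n = 3) CPM. The calls of KRTAP2-1 and KRTAP2-4 between the treated groups were lost without activin + HGF library 1 (edgeR adjusted p = 0.0927 and 0.0698), and that of KRTAP2-1 also without activin library 2 (0.0539). These genes are near-identical copies, so the division of reads among them is uncertain.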
